A study of Mus musculus with 41 samples.

Results

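The first interval of the control time course, day 7 to day 9, was described over all genes expressed in mouse R1-iCas9 embryonic stem cells that were being differentiated towards ventral spinal cord. Its levels and changes rest on the 3 non-targeting (NT) libraries of day 7 and the 3 of day 9, chosen by their titles. These are 6 of the 41 libraries of the series. The filter on low counts and the spread behind the p-values were taken over all 41 libraries. In R1-iCas9 cells, Cas9 is made when doxycycline is added. All groups of the series received doxycycline and a transfected guide before differentiation, so the NT cells also carried induced Cas9, with the non-targeting guide Control #1 in place of pooled guides against Eed, Ezh2, Brd8 or Nr6a1. Cells were grown in N2B27 medium with bFGF, then with the GSK3β inhibitor CHIR99021, then with retinoic acid and the Smoothened agonist SAG, and from day 5 with SAG alone. Both days therefore fall in the SAG phase, after retinoic acid was withdrawn. The NT libraries of day 11 (3 libraries) were used to ask where this interval differed from the next. Each library is a bulk culture, in which fewer cells of a type and less RNA per cell cannot be told apart. No label states that the replicates were grown as separate cultures. The p-values therefore weigh a change against the spread between libraries, which may be technical.

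In the ventral neural tube, Hedgehog signalling patterns dividing progenitors into domains that first give rise to neurons (motor neurons and the V0 to V3 interneurons) and later switch to making glia. Progenitors keep themselves dividing through Notch signalling, and leave the cycle under proneural bHLH factors. The age of a progenitor is marked by the RNA-binding protein Lin28 and its partners early on and by the nuclear factor I transcription factors later. The labels call all samples neural progenitors. Of 6 progenitor markers (Sox1, Sox2, Sox3, Nes, Pax6 and Hes5) all were expressed, with a summed level of 1122 to 1152 CPM (counts after scaling every library to the same size) at day 7 and 951 to 1052 CPM at day 9. Neuron markers (Tubb3, Elavl3 and Map2) stood beside them at 1623 to 1637 CPM at day 7 and 2391 to 2582 CPM at day 9, so markers of both were present on both days. The blood and microglia markers Ptprc, Csf1r and Aif1 had 0 counts in all 6 libraries.

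Libraries of the 2 days held 10520080 to 22537993 estimated counts, and 8581282 to 38240227 over the series. With 3 counts as the limit that a count of 0 allows in a single library, a count of 0 leaves room for levels up to 0.138 to 0.312 CPM, depending on the library (counting error only). The deposited table lists 24410 symbols, of which 15204 passed the filter on low counts. The 45S ribosomal RNA precursor Rn45s took 14.3 ± 0.358% of counts at day 7 and 6.52 ± 0.506% at day 9 (SD, n = 3 each). When it was left out before scaling, 4234 genes passed the test in place of 4238. The first principal component of the 9 NT libraries, with 43.3% of the variance, placed day 7 at -68.2 to -64.8, day 9 at -8.24 to -1.40 and day 11 at 58.6 to 94.6. Day 11 replicate 3 stood apart from its group on the second component. Some genes had fractional estimated counts, which can arise where reads are shared with a near copy or an overlapping gene. Fractions were present for 741 of the genes called (17.5%), among them Nfia, Nfib, Bcl11a, Ednrb, Ttyh1, Gria2, Mapt, Celf4, Dpysl3, Pax6, Dnmt1, Uhrf1, Rps2, Gapdh, Vcan, Enpp2, Hopx and Nrep. Their values are as the authors deposited them. The counting tool is not named, and how the fractions arose was not tested.

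Between day 7 and day 9, 2209 genes rose (14.5% of those tested) and 2029 fell (13.3%) at an adjusted p under 0.05, by edgeR's quasi-likelihood test with Benjamini-Hochberg adjustment. Counts of list members below are to be read beside these shares, and a list near them moved no more often than genes at large. At least 2-fold changes made up 634 of the rises and 357 of the falls. Of the 15204 genes tested, whether or not they passed, 3391 were higher and 3476 lower at day 9 with no overlap between the days. Lack of overlap was therefore common, and it was also a condition for the genes named by fold or by smallest adjusted p. The median log2 fold change of all genes tested was -0.01 and the median size was 0.344, so that a typical gene moved little. Among the genes that rose with the smallest adjusted p were Igfbp5, Ptprz1, Chl1, Ednrb, Bcl11a, Gareml, Abat, Rab3c and Nrep. Those that fell were led by Prtg, Igdcc3, Crabp1, Sfrp2, Nup210, Igf2bp1, Lin28a, Cad, Trim71 and Slc39a14.

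**Figure D1:**
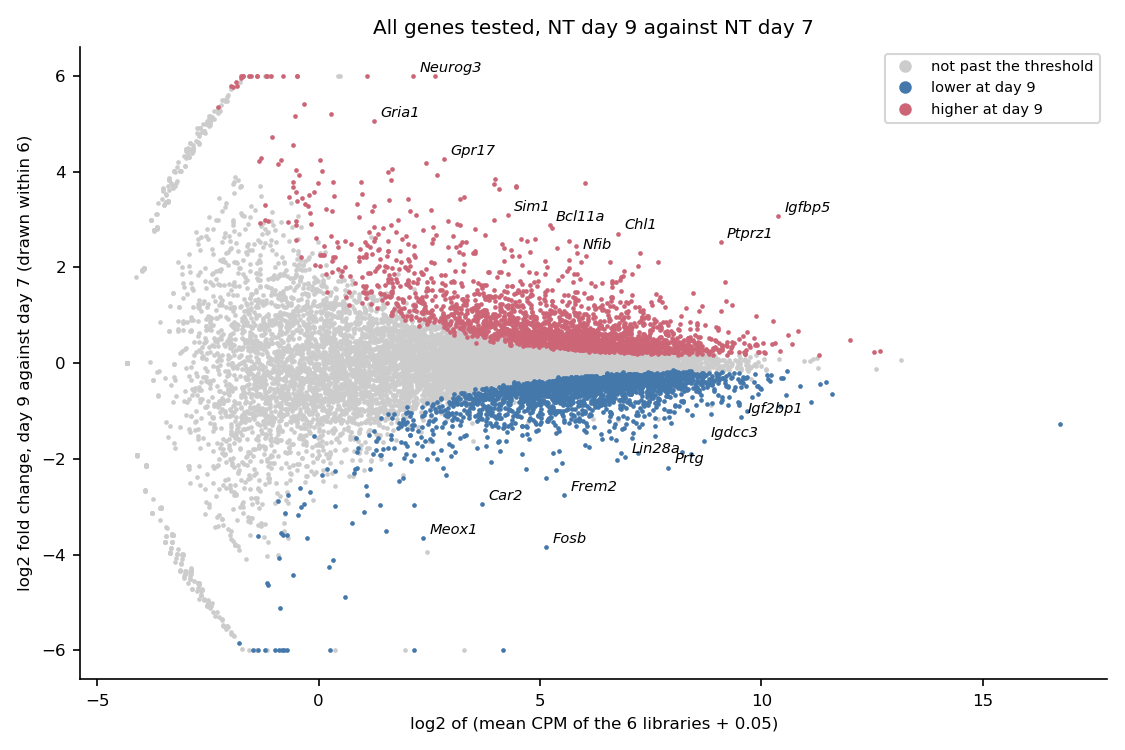
Each point is 1 of 15204 genes, with its mean level over the 6 libraries on the x axis (log2 CPM) and its log2 fold change, NT day 9 against NT day 7, on the y axis. Red points (2209) rose and blue points (2029) fell at an adjusted p under 0.05, and labelled genes such as Igfbp5 and Prtg lie far from 0 at high levels.

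Igfbp5, a secreted binding protein of insulin-like growth factors (chr1:72857932-72874884 on mm10), stood at 323, 275 and 252 CPM in the 3 day 7 libraries and at 2441, 2367 and 2325 CPM in those of day 9. All day 9 libraries lay far above all of day 7, an 8.38-fold rise (log2 fold change 3.07 ± 0.171, adjusted p = 8.26e-16). Chl1, a neural cell adhesion molecule of the L1 family (chr6:103510586-103750211), was at 28.5, 32.0 and 26.2 CPM and then at 212, 147 and 206 CPM. It rose 6.51-fold with no overlap between the days (log2 fold change 2.70 ± 0.170, adjusted p = 1.15e-14). Abat, the enzyme that breaks down GABA, rose 3.53-fold, with 51.6 ± 2.15 CPM at day 7 and 182 ± 7.88 CPM at day 9 (SD, n = 3). Rab3c, a small GTPase of synaptic vesicles, rose 4.94-fold, and Ednrb, the endothelin receptor type B, 2.75-fold. Among the largest rises in fold, several started near 0. Enpp2, the enzyme autotaxin, which makes lysophosphatidic acid, rose 14.4-fold from 2.12 ± 0.528 to 29.5 ± 4.18 CPM. The AMPA receptor subunit gene Gria1 rose 33.2-fold from 0.136 ± 0.0628 to 4.52 ± 1.71 CPM. It had 5 counts over the day 7 libraries and 188 over those of day 9. Pcp4, a calmodulin regulator of neurons, rose 18.1-fold (20 and 453 counts). Pnoc, the precursor of the neuropeptide nociceptin, rose 15.9-fold (12 and 243 counts). Hopx, a homeodomain protein of radial glia, rose 13.7-fold (10 and 167 counts). Folds that start from so few counts at day 7 are uncertain. The complement gene C2 had 2 counts at day 7 and 107 at day 9, a ratio of 46.7 (95% exact interval 12.6 to 390.5, counting error only). Pcdha6, a member of the protocadherin alpha cluster whose genes share exons, was at 0 at day 7 and at 21.3, 8.44 and 7.36 CPM at day 9. Its counts were fractional and its call was lost without day 7 replicate 1 (adjusted p 6.57e-34 to 0.0581 over the alternatives), so its value is uncertain.

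The list of glia-forming and late progenitor genes rose as a group: 14 of 23 tested members rose and 1 (Id3) fell, with a median log2 fold change of 1.17 against -0.01 for all genes. Its summed level went from 983 ± 15.9 CPM at day 7 to 2622 ± 63.3 CPM at day 9 (SD, n = 3 each). Ptprz1, a receptor-type phosphatase found on radial glia (chr6:22875502-23052916), stood at 160.0, 162 and 156 CPM at day 7. At day 9 it was at 931, 907 and 930.0 CPM, 5.79-fold higher (log2 fold change 2.53 ± 0.155, adjusted p = 5.74e-15), and the spread within a day was small beside the gap. Nfia and Nfib, transcription factors that open the glial programme of the spinal cord, both rose. Nfia was at 52.8, 72.2 and 54.1 CPM and then at 163, 161 and 184 CPM, a 2.85-fold rise (log2 fold change 1.51 ± 0.170, adjusted p = 8.32e-09). Nfib was at 14.0, 20.2 and 24.4 CPM and then at 92.5, 95.1 and 94.3 CPM, a 4.92-fold rise (log2 fold change 2.30 ± 0.218, adjusted p = 2e-10). In neither gene did the days overlap. Sox9, which gives progenitors their glial competence, rose 2.24-fold from 139 ± 7.16 to 313 ± 23.3 CPM, and Nfix, a relative of Nfia and Nfib, 2.29-fold. Fabp7, a lipid-binding protein of radial glia, rose 4.31-fold from 76.4 ± 2.80 to 329 ± 24.7 CPM. The glutamate transporter gene Slc1a3 rose 2.90-fold and the membrane protein gene Ttyh1 3.46-fold. The 8 members that did not pass were Tnc, Hepacam, Zbtb20, Aldoc, Fgfr3, Slc1a2, Egfr and Bcan.

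Genes of differentiated glia moved less uniformly. In the oligodendrocyte lineage list 5 of 19 tested members rose and 1 (Olig2) fell, with a median of 0.12. The count that fell was 2 without day 9 replicate 3, 3 with no filter on low counts and 4 when only the groups compared were fitted. Gpr17, a receptor of committed oligodendrocyte precursors, rose from 1.06, 0.729 and 0 CPM to 10.99, 14.6 and 15.2 CPM, 19.2-fold, with no overlap between the days. The lineage factor Sox10 rose from 2.56, 3.75 and 0 CPM to 12.5, 16.7 and 19.2 CPM. Pdgfra, the growth factor receptor that defines oligodendrocyte precursors, did not pass the test, with 4.01, 6.35 and 14.2 CPM at day 7 and 3.82, 9.18 and 6.03 CPM at day 9 (log2 fold change -0.28 ± 0.388, adjusted p = 0.661). In the astroglial list 3 of 13 members rose (Aldh1l1, Sox9 and Mlc1) and 1, the gap junction gene Gja1, fell 1.94-fold from 66.0 ± 5.85 to 33.8 ± 6.12 CPM. The call of Mlc1 was lost without day 7 replicate 3 or day 9 replicate 1. Aldh1l1, a folate enzyme used as an astrocyte marker, went from 0.725, 0.208 and 0 CPM to 6.86, 6.88 and 3.55 CPM, 14.1-fold. It had 17 counts over the day 7 libraries and 278 over those of day 9. The water channel gene Aqp4 had 3 counts at day 7 and 7 at day 9, S100b had 0 on both days, and Gfap was too low to be tested. Sox10, Ednrb and Sox9 are also neural crest genes. The neural crest list had 6 of 17 members higher (among them those 3, Ets1 and Ngfr), and the summed level of the crest markers Sox10, Foxd3 and Tfap2a went from 6.16 to 17.1 CPM at day 7 to 21.0 to 35.1 CPM at day 9. The part of crest cells in the rise of the shared genes was not tested.

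**Figure D2:**
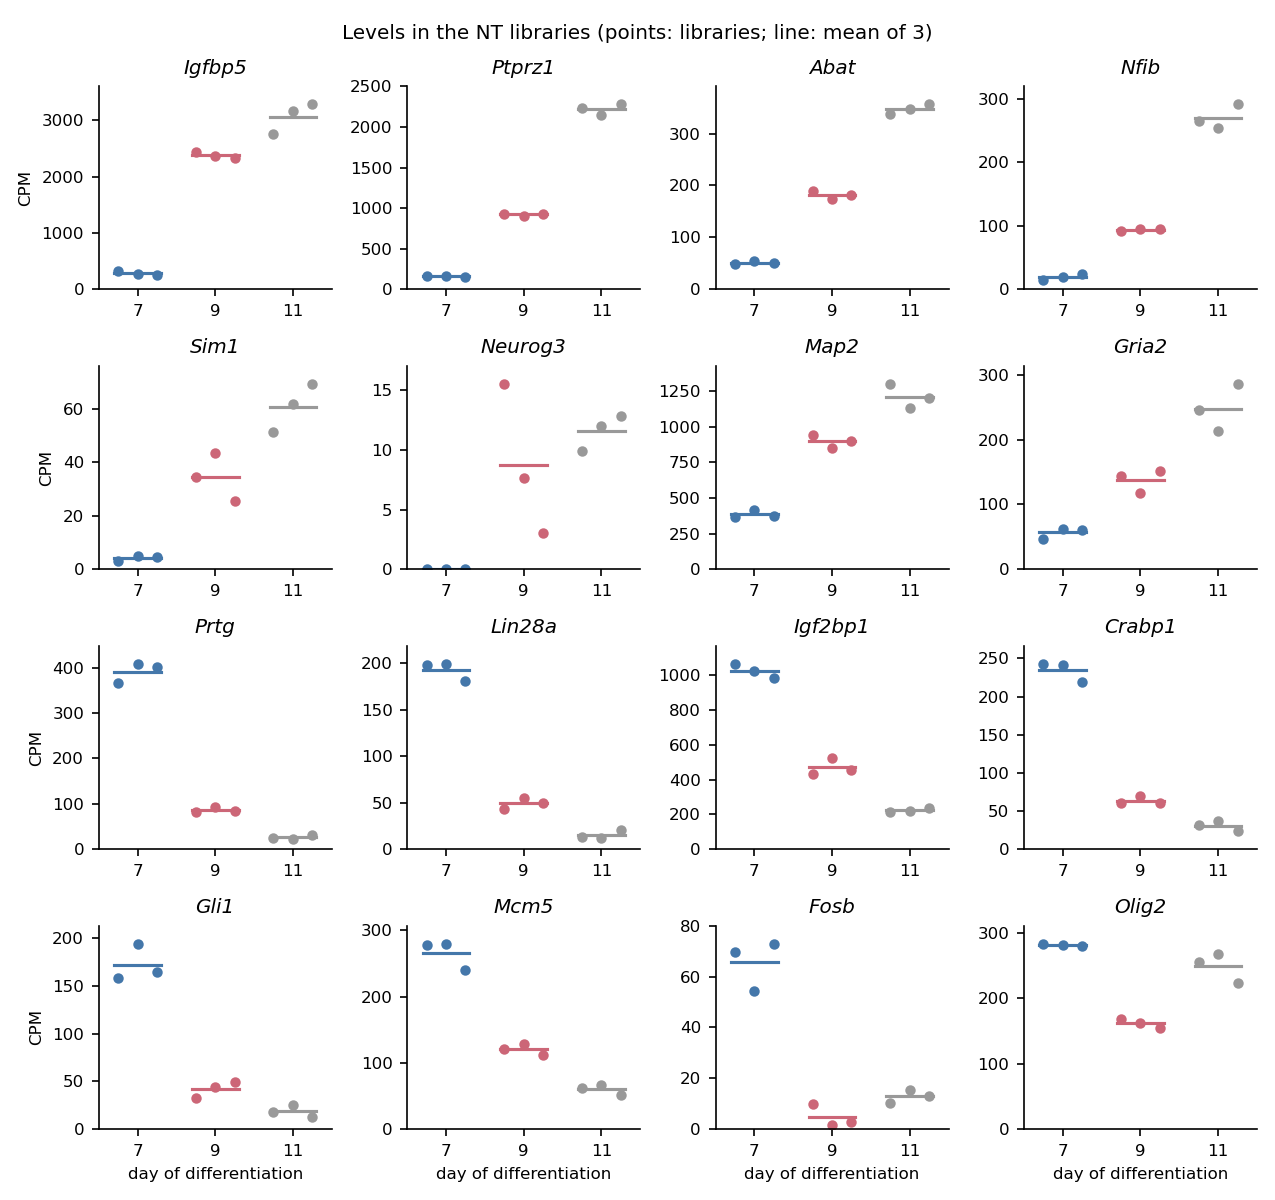
Levels of 16 genes (CPM, y axis, from 0) in each NT library at days 7, 9 and 11 (x axis), with 3 points per day and a line at their mean. Igfbp5, Ptprz1, Abat and Nfib stand higher in every day 9 library than in any of day 7, while Prtg, Lin28a, Gli1 and Fosb stand lower.

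Genes of neurons rose together. In the list of synaptic genes 25 of 29 tested members rose and none fell, with a median of 0.84. In the list of general neuronal structure 18 of 25 rose and none fell, with a median of 0.50. The summed level of the synaptic list went from 1756 ± 73.1 to 2708 ± 235 CPM, and that of the structural list from 10423 ± 272 to 14902 ± 1132 CPM (SD, n = 3 each). Map2, a microtubule protein of dendrites, was at 369, 417 and 372 CPM at day 7 and 945, 854 and 900.4 CPM at day 9. It rose 2.33-fold with no overlap (log2 fold change 1.22 ± 0.106, adjusted p = 3.06e-11). Tubb3, the neuronal beta tubulin, was at 911, 899 and 881 CPM and then at 1215, 1162 and 1232 CPM, a smaller rise of 1.34-fold (log2 fold change 0.42 ± 0.0835, adjusted p = 0.000138). Mapt, which encodes tau, rose 2.43-fold, the RNA-binding protein gene Celf4 2.99-fold and the growth cone protein gene Dpysl3 1.58-fold. Members that did not pass were Stmn1, Stmn4, Elavl2, Elavl4, Nefm, Nefh and Dpysl5. Among synaptic genes, Gria2, an AMPA receptor subunit, rose from 47.2, 62.5 and 60.9 CPM to 144, 118 and 152 CPM, 2.44-fold (log2 fold change 1.29 ± 0.151, adjusted p = 2.07e-08). Syn2, a synaptic vesicle phosphoprotein, rose 6.38-fold from 3.74 ± 0.978 to 23.2 ± 2.97 CPM. The vesicle fusion gene Vamp2 rose 1.97-fold and the sodium channel gene Scn3a 2.28-fold. The 4 that did not pass were Stx1a, Pclo, Gabbr2 and Cacna1b.

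Of 13 transmitter genes tested, 6 rose and none fell, with a median of 0.76. The vesicular glutamate transporter gene Slc17a6 rose from 0.725, 0.937 and 0.205 CPM to 4.52, 3.21 and 2.93 CPM. Slc17a8, another vesicular glutamate transporter, had 0 counts in all day 7 libraries and 5.69, 3.95 and 2.93 CPM at day 9. With the counts of each day pooled, that is at least 55.9-fold higher (against 3 counts over the group, counting error only). Gad1 and Gad2, the enzymes that make GABA, rose 3.24-fold and 1.85-fold. The glycine transporter gene Slc6a5 rose 2.28-fold, a call lost without day 7 replicate 1, day 7 replicate 2 or day 9 replicate 3 (adjusted p 0.00605 to 0.113 over the alternatives). The cholinergic genes Chat and Slc18a3 did not pass, while the choline transporter gene Slc5a7, given with the motor neuron genes below, rose. Chat was at 12.99, 14.6 and 22.8 CPM and then at 22.7, 16.1 and 24.1 CPM, and Slc18a3 at 125, 123 and 125 CPM and then at 152, 148 and 166 CPM. For Slc18a3 every day 9 library lay above every day 7 library, but its adjusted p was 0.268, 0.00078 when only the groups compared were fitted and 0.0108 with no filter on low counts.

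By neuron class, the V3 and floor plate list stood out in median (1.49), with 7 of 10 tested members higher and 1 lower. Sim1, the transcription factor of V3 interneurons (chr10:50894754-50989152), was at 3.09, 4.79 and 4.62 CPM at day 7 and 34.6, 43.6 and 25.4 CPM at day 9. It rose 8.54-fold with no overlap (log2 fold change 3.09 ± 0.288, adjusted p = 1.4e-10). Nkx2-2, the factor of the progenitor domain that makes V3 neurons, rose from 14.3, 17.4 and 23.0 CPM to 59.6, 53.9 and 38.2 CPM, 2.81-fold (log2 fold change 1.49 ± 0.236, adjusted p = 5.55e-06). The secreted floor plate proteins Spon1 and Ntn1 rose 3.63-fold and 2.23-fold, the V3 factor Uncx rose 2.82-fold, and Shh itself rose 3.43-fold from 2.63 ± 0.300 to 8.97 ± 2.63 CPM. Nkx2-9, an early neighbour of Nkx2-2 in the same domain, fell 3.15-fold from 25.2 ± 6.42 to 8.03 ± 1.86 CPM. Foxa2, the floor plate factor, did not pass, at 1.64, 0.729 and 1.85 CPM and 2.10, 5.60 and 1.42 CPM.

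Motor neuron genes were mixed. Of 21 tested, 3 rose (Slc5a7, Gfra1 and Tbx20) and 6 fell, with a median of -0.22. The count that rose was 1 without day 7 replicate 1 and 6 when only these groups were fitted or no filter was used. Isl1, a LIM homeodomain factor of motor neurons, was at 83.7, 78.4 and 91.8 CPM at day 7 and 57.0, 49.5 and 62.7 CPM at day 9. It fell 1.503-fold with no overlap, but the call was lost without replicate 1 or 3 of day 7 or replicate 1 or 2 of day 9 (adjusted p 2.46e-05 to 0.131 over the alternatives). Onecut1 and Onecut2, factors of early-born neurons, fell 1.67-fold and 1.59-fold, and the receptor gene Ret fell 1.63-fold. Its partner Gfra1, a co-receptor for GDNF, rose 1.29-fold. Mnx1, a motor neuron homeodomain factor, did not pass, with 16.8, 15.1 and 24.4 CPM and 24.2, 18.9 and 24.8 CPM. Lhx3, a LIM factor shared with V2 neurons, was at 28.4, 33.5 and 32.5 CPM and 49.3, 47.3 and 46.6 CPM without overlap. Its adjusted p was 0.0546, 0.000166 when only the groups compared were fitted, 0.000584 with no filter on low counts and 0.0391 by DESeq2's Wald test. Tbx20 was lost without day 7 replicate 1.

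The V2 list had 4 of 11 members higher and 3 lower, the latter 1 when any of day 7 replicates 2 and 3 or day 9 replicates 1 and 3 was left out. Within it, the progenitor gene Foxn4, which starts V2 neuron formation, fell 2.96-fold from 17.1, 11.5 and 12.01 CPM to 4.83, 3.58 and 5.50 CPM. Those that rose include Gata3, a V2b factor, 1.76-fold and Sox14 5.06-fold, and Tal1, Lhx3, Lhx4 and Bhlhe22 did not pass. Among V0, V1 and dorsal interneuron genes 2 of 22 rose and 1 (Isl1) fell. Those that rose were the LIM factor Lhx1, from 22.4, 18.5 and 17.0 CPM to 46.8, 45.3 and 55.2 CPM, and the V1 factor Foxp2, 1.89-fold.

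Genes that start neuron formation fell in part. Of 24 proneural and early neurogenic genes 11 fell and 2 rose, with a median of -0.38. Neurog2, the proneural factor of motor neuron progenitors, was at 91.4, 84.1 and 76.1 CPM and then at 38.0, 46.3 and 36.4 CPM. It fell 2.08-fold with no overlap (log2 fold change -1.06 ± 0.190, adjusted p = 4.01e-05). St18 and Srrm4, a zinc finger factor and a splicing regulator of new neurons, fell 1.44-fold and 1.48-fold. Neurog3, a proneural factor of the most ventral domain and of the pancreas (chr10:62133090-62134763), went from 0 counts in all 3 libraries to 399 counts over the day 9 libraries. These were at 15.5, 7.62 and 3.02 CPM (adjusted p = 9.17e-09). With the counts of each day pooled, that is at least 116-fold above 3 counts over the day 7 group. This bound holds counting error only and not the spread between libraries. The other gene of the list that rose was the zinc finger factor Myt1, 1.52-fold. Of 24 Notch pathway genes 9 fell and 3 rose. Dll1, the ligand shown by newborn neurons, fell 1.64-fold from 150.5 ± 13.6 to 91.8 ± 6.73 CPM. Hes5, a direct Notch target in progenitors, fell 2.01-fold from 61.6 ± 3.69 to 30.6 ± 4.16 CPM, and the feedback inhibitor Nrarp fell 1.77-fold. Dner, a Notch-related protein of neurons and glia, rose 2.12-fold, and the coactivator gene Maml2 1.99-fold.

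The list of neural progenitor genes divided: 9 of 21 fell and 5 rose, and its summed level was 5093 ± 127 CPM at day 7 and 5238 ± 138 CPM at day 9 (SD, n = 3 each). The members that rose were Vim, Cdh2, Fabp7, Rfx4 and Slc1a3, which include the radial glia genes named above. Pax6, a factor of progenitors above the motor neuron domain, fell 2.09-fold from 68.0, 64.9 and 51.8 CPM to 22.7, 35.1 and 30.3 CPM. Irx3, which bounds that domain from above, fell 2.55-fold, and Sox3, a SoxB1 factor, 2.01-fold. Sox2, which maintains progenitors, was at 151, 150.1 and 125 CPM and then at 183, 176 and 152 CPM, higher in all 3 libraries of day 9. Its adjusted p was 0.0830, 0.0144 when only the groups compared were fitted, 0.0209 with no filter on low counts and 0.046 without day 9 replicate 3. Of 17 ventral progenitor genes 7 fell and 2 rose (Nkx2-2 and Shh). Olig2, the factor of motor neuron and later oligodendrocyte progenitors (chr16:91225457-91228677), was at 283, 281 and 279.6 CPM and then at 168, 162 and 155 CPM. It fell 1.74-fold with no overlap (log2 fold change -0.80 ± 0.161, adjusted p = 0.000196). Nkx6-1, a homeodomain factor of the ventral domains, had a log2 fold change of -0.53 ± 0.299 and an adjusted p of 0.203. All its day 9 libraries (111, 86.7 and 69.0 CPM) lay below those of day 7 (123, 125 and 136 CPM). Fitting only the groups compared gave it an adjusted p of 0.00144, and no filter on low counts 5.42e-05.

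Hedgehog response genes fell while SAG was still present: 10 of 17 fell and none rose, with a median of -0.42. Gli1, a transcription factor that is itself a target of the pathway (chr10:127329882-127341974), was at 158, 194 and 165 CPM and then at 32.7, 44.4 and 49.6 CPM. It fell 4.07-fold with no overlap (log2 fold change -2.03 ± 0.205, adjusted p = 8.09e-10). Gli2, the main activator, fell 2.37-fold. Ptch1, the receptor and a target, fell 1.24-fold from 683, 725 and 698 CPM to 552, 555 and 588 CPM. The inhibitor Sufu fell 1.45-fold. The 7 that did not pass were Boc, Cdon, Gas1, Foxf1, Fkbp8, Sox18 and Bcl2.

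In the retinoic acid pathway 4 of 19 genes rose and 4 fell, 21.1% each, beside 14.5% and 13.3% of all genes tested. Both cytoplasmic binding proteins fell: Crabp1 from 242, 242 and 219 CPM to 60.2, 69.5 and 60.5 CPM, 3.69-fold (log2 fold change -1.88 ± 0.132, adjusted p = 1.4e-13), and Crabp2 2.98-fold from 203 ± 3.91 to 68.2 ± 7.17 CPM. Dhrs3, which returns retinal to retinol, rose 7.90-fold from 3.04, 1.87 and 5.75 CPM to 21.2, 29.2 and 32.5 CPM. Cyp26b1, which degrades retinoic acid, rose 3.22-fold. The receptor gene Rarb was at 101 ± 7.36 and then at 123 ± 4.03 CPM, a rise of 1.22-fold that was lost without replicate 2 or 3 of day 7 or replicate 1 or 2 of day 9 (adjusted p 0.00429 to 0.115 over the alternatives). Among BMP and Id genes 3 of 19 rose and 3 fell, 15.8% each, which is near the shares of all genes. The BMP target genes Id1 and Id2 fell 4.26-fold and 1.51-fold, with Id1 at 70.6, 79.4 and 67.7 CPM and then at 18.1, 15.9 and 17.2 CPM. Id4 rose 1.78-fold and the ligand gene Bmp7 2.03-fold. Among 24 Wnt pathway genes 6 rose (3 without day 7 replicate 2 or 3) and 2 fell (1 without day 7 replicate 2 or day 9 replicate 1). The secreted inhibitor Sfrp2 fell 3.72-fold from 599.9, 552 and 467 CPM to 121, 188 and 125 CPM. The ligand gene Wnt4 rose 4.67-fold and the receptor gene Fzd8 1.91-fold.

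Hox genes record position along the body axis. Of the 15 genes of groups 1 to 5, 6 rose and 3 fell (1 without day 9 replicate 2 or 3). Of the 12 of groups 6 to 9, 4 rose (7 with no filter on low counts) and 1 fell. The fall was that of Hoxc9, at 44 and 3 counts, and was lost without replicate 1 or 2 of either day. Hoxa5 rose 2.40-fold from 83.1, 64.1 and 76.4 CPM to 199, 169 and 169 CPM, with no overlap. Hoxb8 rose 1.91-fold from 116, 91.7 and 129 CPM to 226, 223 and 192 CPM, Hoxb6 1.81-fold and Hoxc5 1.78-fold. None of the 8 tested genes of groups 10 to 13 passed, and their summed level was 2.52 ± 0.47 CPM at day 7 and 1.45 ± 0.68 CPM at day 9 (SD, n = 3 each).

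Genes of young progenitors fell. In the early heterochronic list 13 of 16 fell and 1 rose, with a median of -0.93, and the summed level went from 3288 ± 85.6 to 1844 ± 113 CPM (SD, n = 3 each). Lin28a, an RNA-binding protein that blocks the let-7 microRNAs (chr4:134003330-134018841), was at 198, 199 and 180.4 CPM and then at 43.1, 54.7 and 50.0 CPM. It fell 3.90-fold with no overlap (log2 fold change -1.96 ± 0.169, adjusted p = 2.58e-11), and its paralogue Lin28b fell 2.31-fold from 87.4 ± 2.75 to 37.8 ± 2.88 CPM. Trim71, a let-7 target and RNA regulator, fell 3.66-fold from 173, 179.7 and 183 CPM to 51.2, 52.1 and 42.4 CPM. Igf2bp1, an mRNA-binding protein of fetal tissue, fell 2.17-fold from 1062, 1024 and 981 CPM to 432, 521 and 457 CPM. The chromatin protein gene Hmga2 fell 1.37-fold, from 228, 245 and 226 CPM to 148, 183 and 178 CPM. That call was lost without day 7 replicate 2 or day 9 replicate 1 (adjusted p 2.03e-05 to 0.0933 over the alternatives). Bcl11a was the member that rose, 7.36-fold from 7.05, 12.2 and 8.01 CPM to 69.5, 59.7 and 66.5 CPM. Prtg and Igdcc3, immunoglobulin superfamily receptors of the early neural tube, fell 4.54-fold and 3.08-fold, with Prtg at 365, 407 and 400.4 CPM and then at 81.5, 92.7 and 83.4 CPM. Nr6a1, an orphan nuclear receptor that other cells of the series received guides against, fell 2.42-fold in these control cells. Ezh2 and Brd8, also targeted elsewhere, fell 1.33-fold and 1.30-fold, and Eed did not pass (adjusted p = 0.355). Of 18 genes listed as late temporal transcription factors 8 rose and 3 fell. Those that rose include Nfia, Nfib, Bcl11b (6.04-fold) and Npas3 (2.12-fold), and those that fell are the 3 Onecut genes. Onecut1 and Onecut2 are named above as factors of early-born neurons, so the list does not hold late factors alone.

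**Figure D3:**
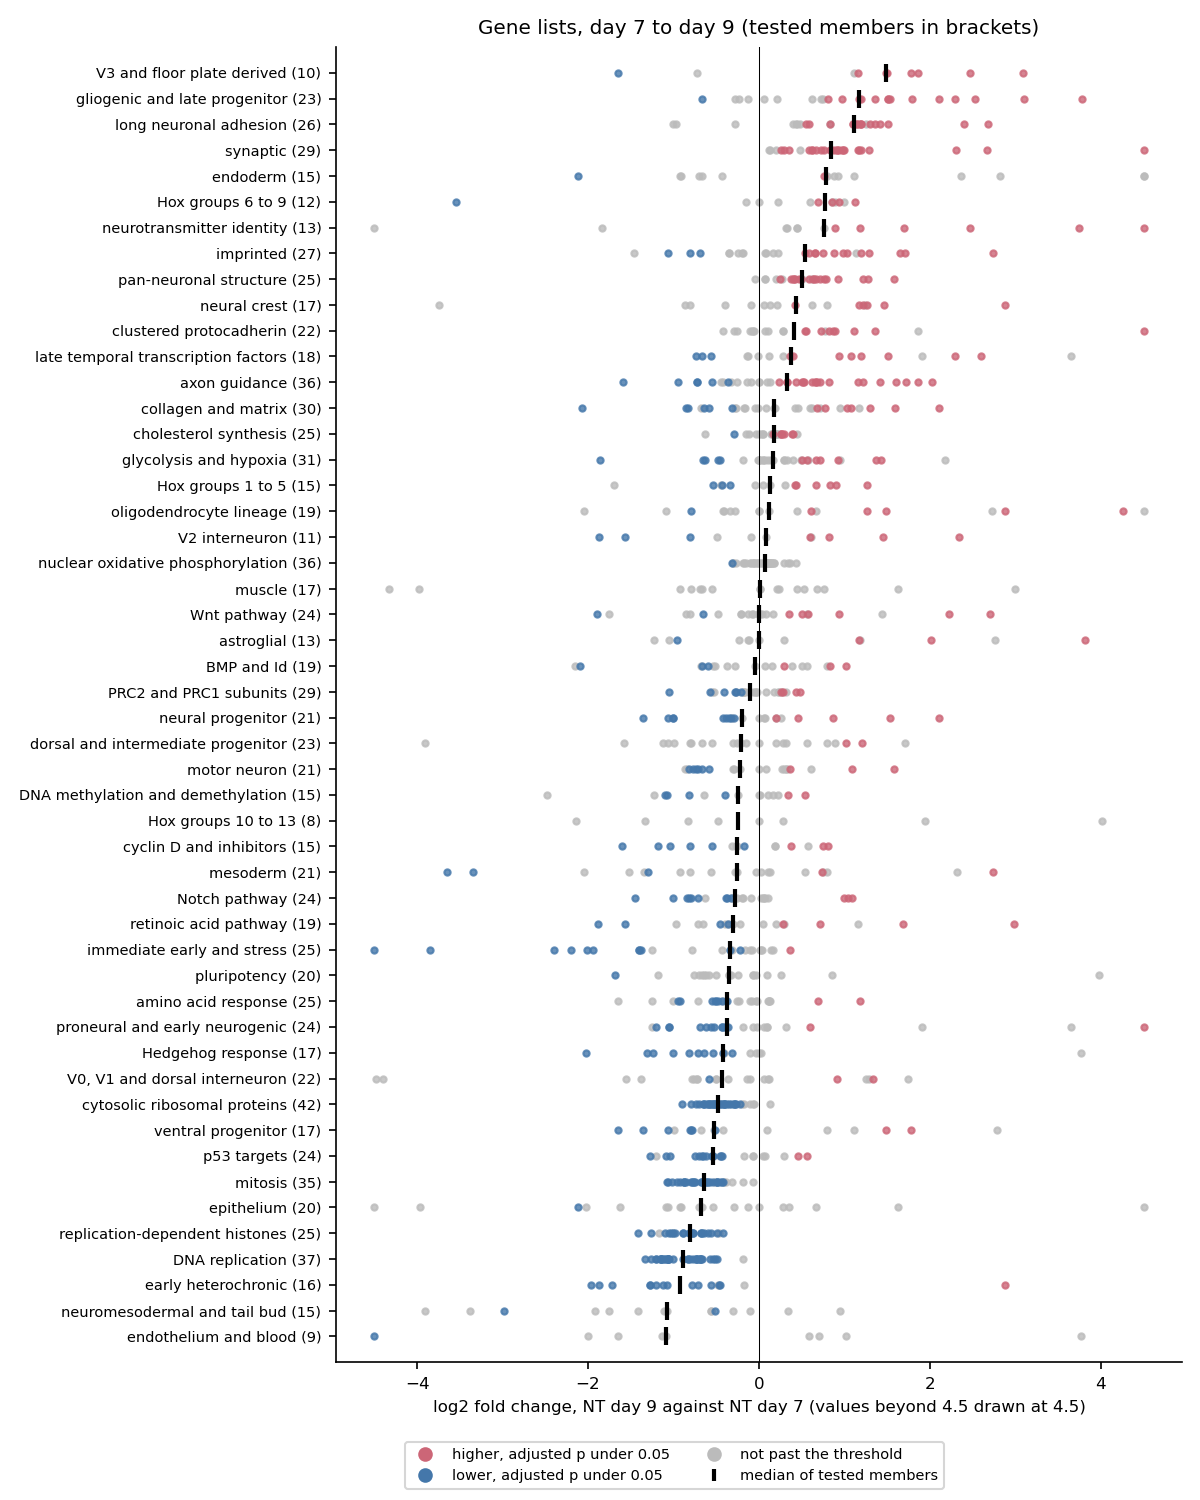
Log2 fold change, NT day 9 against NT day 7 (x axis), of each tested member (points) of 50 gene lists (y axis, ordered by median, with the number tested in brackets). Red points rose, blue points fell, grey points did not pass, and the black bar is the median, from 1.49 for the V3 and floor plate list to -1.09 for the endothelium and blood list, most of whose members did not pass.

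Most genes of DNA replication, mitosis and replication-dependent histones fell. In the DNA replication list 36 of 37 genes fell, with a median of -0.89, and the summed level went from 3296 ± 145 to 1742 ± 165 CPM (SD, n = 3 each). The member that did not pass was Ccne2. In the mitosis list 29 of 35 fell, with a median of -0.64, and among replication-dependent histone genes 22 of 25 fell, with a median of -0.81. No member of these 3 lists rose. Mcm5, a subunit of the replicative helicase (chr8:75109569-75128439), was at 277, 279 and 239.7 CPM and then at 121, 129 and 112 CPM. It fell 2.20-fold with no overlap (log2 fold change -1.14 ± 0.120, adjusted p = 2.11e-09). Its partner Mcm3 fell 2.11-fold from 211, 196 and 197 CPM to 89.0, 108 and 88.6 CPM. Rrm2, the ribonucleotide reductase subunit that supplies deoxynucleotides, fell 2.40-fold from 238, 221 and 213 CPM to 82.9, 107 and 89.1 CPM. Mki67, the proliferation antigen of dividing cells, was at 927, 982 and 891 CPM and then at 492, 537 and 491 CPM, 1.84-fold lower. The mitotic kinesin genes Kif20a and Kif2c fell 2.02-fold and 2.10-fold, and the linker histone gene Hist1h1a 2.39-fold. Cdk1, Ccnb2, Bub3, Cdc25b, Nusap1 and Ndc80 were the mitosis genes that did not pass. In the list of D cyclins and cell cycle inhibitors 6 of 15 fell, 3 rose and 6 did not pass, with a median of -0.26. Ccnd1, cyclin D1, fell 3.03-fold from 163, 155 and 154 CPM to 42.6, 63.3 and 49.2 CPM. Of its inhibitors, Cdkn1c rose 1.68-fold, and the p53 target Cdkn1a fell 2.05-fold from 87.1 ± 3.96 to 42.3 ± 5.18 CPM.

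Replication and mitosis genes are known to be driven from promoters with different short elements, an E2F site and a cell cycle homology region, and these are shown because both lists moved together. RefSeq promoter windows of GRCm38.p6, the assembly of mm10 (250 bases before to 50 after each start), were matched by symbol for 11352 of the 15204 genes and searched on both strands. The E2F site was taken as TTTCCCGC, TTTCGCGC, TTTGGCGC or TTTGCCGC, and matches on opposite strands can overlap. It was found for 14 of 31 DNA replication genes with a window (45.2%), for 1 of 29 mitosis genes (3.4%) and for 4.5% of all genes. It was found for 8.4% of the genes that fell and 3.2% of those that rose. The stretches below hold it upstream of replication genes that fell, read 5′ to 3′ in the direction of the gene, with the matches in capitals. Overlapping matches run together in 1 capital stretch. They belong to Mcm5 (chr8:75109336-75109387 on the plus strand), Mcm6, another helicase subunit (chr1:128359725-128359835 on the minus strand), and Cdc6, which loads that helicase (chr11:98907993-98908040 on the plus strand). The others belong to Orc1, of the origin recognition complex (chr4:108579407-108579453 on the plus strand), Pola1, the catalytic subunit of the priming polymerase (chrX:93632266-93632313 on the minus strand), and Uhrf1, which guides maintenance DNA methylation (chr17:56304108-56304155 on the plus strand).
Mcm5: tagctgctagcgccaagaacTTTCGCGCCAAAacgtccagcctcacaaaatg
Mcm6: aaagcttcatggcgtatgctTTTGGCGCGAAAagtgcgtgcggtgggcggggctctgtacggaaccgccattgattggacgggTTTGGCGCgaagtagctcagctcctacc
Cdc6: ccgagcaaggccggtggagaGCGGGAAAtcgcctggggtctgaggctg
Orc1: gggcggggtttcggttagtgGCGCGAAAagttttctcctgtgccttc
Pola1: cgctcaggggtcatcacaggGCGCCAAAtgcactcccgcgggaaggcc
Uhrf1: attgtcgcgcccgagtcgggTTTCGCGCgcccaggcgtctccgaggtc
These genes fell 2.20-fold (Mcm5), 1.59-fold (Mcm6), 2.08-fold (Cdc6), 2.09-fold (Orc1), 2.31-fold (Pola1) and 2.14-fold (Uhrf1).

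The cell cycle homology region was taken as TTTGAA or TTCGAA. It was found for 23 of 29 mitosis genes with a window (79.3%), for 6 of 31 replication genes (19.4%) and for 15.9% of all genes, with 18.2% among those that fell and 13.9% among those that rose. The box CCAAT, bound by NF-Y, was found for 22 of 29 mitosis genes (75.9%), for 58.1% of replication genes and for 42.9% of all genes, so that it divides the lists less sharply. A match describes the letters of the window and is not a measured binding site. The mitosis stretches below belong to Top2a, the topoisomerase that untangles chromosomes (chr11:99024190-99024388 on the minus strand), and Mki67 (chr7:135716452-135716515 on the minus strand). They are followed by Cdc20, an activator of the anaphase-promoting complex (chr4:118437344-118437381 on the minus strand), and Prc1, which bundles microtubules of the central spindle (chr7:80294426-80294471 on the plus strand).
Top2a: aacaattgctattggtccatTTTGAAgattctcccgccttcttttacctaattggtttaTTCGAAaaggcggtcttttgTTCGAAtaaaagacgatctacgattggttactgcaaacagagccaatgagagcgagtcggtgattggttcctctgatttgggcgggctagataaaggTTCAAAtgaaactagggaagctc
Mki67: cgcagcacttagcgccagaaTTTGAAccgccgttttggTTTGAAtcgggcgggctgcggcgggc
Cdc20: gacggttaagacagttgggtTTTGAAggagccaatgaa
Prc1: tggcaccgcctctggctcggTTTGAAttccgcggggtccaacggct
Top2a fell 1.45-fold, Cdc20 2.08-fold and Prc1 1.40-fold, beside the 1.84-fold fall of Mki67.

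**Figure D4:**
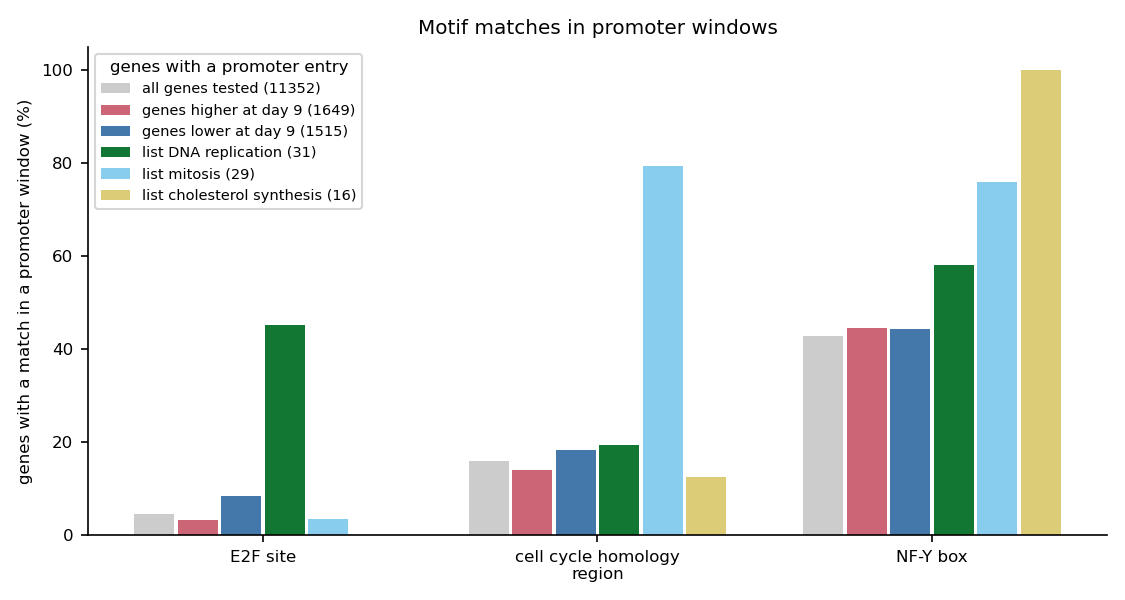
Share of genes (y axis, %) with at least 1 match in a promoter window for 3 motifs (x axis), in all genes tested, genes that rose, genes that fell and 3 lists, with the number of genes with a window in brackets. The E2F site is at 45.2% in the DNA replication list and the cell cycle homology region at 79.3% in the mitosis list, against 4.5% and 15.9% of all genes, and the bars of the cholesterol list rest on 16 of its 25 genes.

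Genes of protein synthesis fell alongside. Of 42 cytosolic ribosomal protein genes 35 fell and none rose, with a median of -0.48, and their summed level went from 13927 ± 624 to 9755 ± 396 CPM (SD, n = 3 each). Rps2 was at 1927, 1782 and 1632 CPM and then at 926, 1023 and 904 CPM, 1.87-fold lower, and Rplp0 at 755, 698 and 611 CPM and then at 418, 441 and 411 CPM, 1.63-fold lower. The share of Rn45s fell over the same interval, as given above. The libraries were ribosome-depleted, and the part of depletion in that share was not tested. Cad, which starts pyrimidine synthesis, fell 2.18-fold from 353, 347 and 289 CPM to 141, 162 and 151 CPM, and the nuclear pore gene Nup210 fell 2.49-fold. In the amino acid response list 8 of 25 genes fell and 2 rose, with Psat1, an enzyme of serine synthesis, 1.93-fold lower and the folate enzyme gene Aldh1l2 2.26-fold higher. Of 36 nuclear genes of oxidative phosphorylation 1 fell (Uqcrc1, lost without replicate 3 of either day) and none rose, with a median of 0.07.

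Metabolic lists were mixed. Of 31 glycolysis and hypoxia genes 7 rose (11 with no filter on low counts) and 5 fell (3 without day 7 replicate 1). These are 22.6% and 16.1%, beside 14.5% and 13.3% of all genes tested. Slc2a1, the glucose transporter GLUT1, was at 542, 419 and 438 CPM and then at 129, 151 and 105.4 CPM, 3.62-fold lower (log2 fold change -1.86 ± 0.204, adjusted p = 4.98e-09). The enzyme gene Gapdh fell 1.58-fold, from 4145, 3779.6 and 3396 CPM to 2344, 2577 and 2258 CPM. The hypoxia-induced gene Egln3 rose 2.70-fold, and Vegfa, the vascular growth factor, did not pass, at 63.2, 55.1 and 57.5 CPM and 78.6, 87.6 and 65.5 CPM (adjusted p = 0.0593, 0.00396 when only the groups compared were fitted, 0.000595 with no filter on low counts, 0.0383 by DESeq2's Wald test and 0.0333 without day 9 replicate 3). Of 25 cholesterol synthesis genes 7 rose and 1 fell, with a median of 0.17. The count that rose was 4 without replicate 2 or 3 of day 7 or replicate 2 of day 9, and 3 without replicate 3 of day 9. Hmgcs1, an early enzyme of the pathway, rose 1.31-fold from 824, 788 and 846 CPM to 1059, 1017 and 1146 CPM (log2 fold change 0.39 ± 0.0729, adjusted p = 6.78e-05). The enzyme genes Sqle and Nsdhl rose 1.20-fold and 1.32-fold.

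Of 25 immediate early and stress genes 11 fell and 1 rose (Klf6, lost without day 7 replicate 1 or day 9 replicate 1). Each day was collected at its own time, so handling at collection cannot be told apart from the day, in these genes as in all others tested. Fosb, a subunit of the AP-1 factor, was at 69.8, 54.4 and 72.8 CPM and then at 9.90, 1.61 and 2.75 CPM. It fell 14.4-fold (log2 fold change -3.85 ± 0.520, adjusted p = 3.43e-07), with no overlap between the days in it or in Fos and Egr1. Fos fell 5.26-fold from 59.9, 58.7 and 58.0 CPM to 16.1, 11.1 and 6.30 CPM, and Egr1 2.61-fold from 163, 154 and 186 CPM to 85.9, 70.0 and 36.1 CPM. Hspa1a, a heat shock protein gene whose near copy Hspa1b can share its reads, had 100 counts at day 7 and 1 at day 9. Of 24 p53 target genes 14 fell and 2 rose, with a median of -0.54. Besides Cdkn1a, the apoptosis gene Aen fell 1.57-fold, the death receptor gene Eda2r 1.53-fold and Gtse1, which also acts in mitosis, 2.13-fold.

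**Figure D5:**
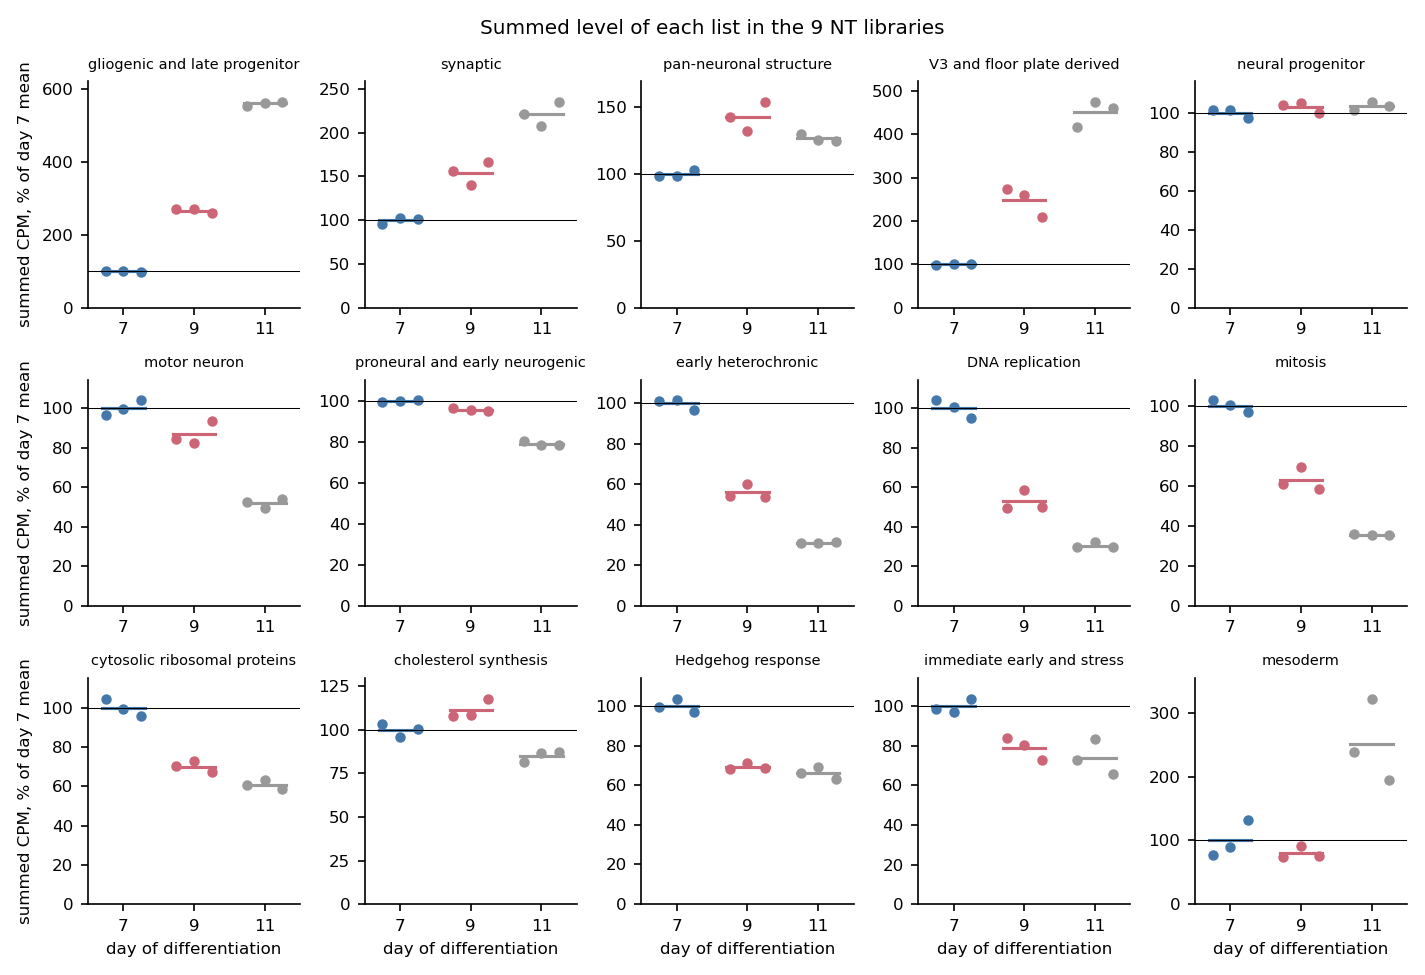
Summed CPM of 15 gene lists in each NT library, as a percentage of the day 7 mean (y axis, from 0), at days 7, 9 and 11 (x axis), with points for libraries and a line at the mean of 3. The gliogenic, synaptic and V3 sums are higher in every day 9 library than in any of day 7, the replication, mitosis, early heterochronic and ribosomal protein sums are lower, and the neural progenitor sum overlaps.

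Chromatin genes moved in both directions. Of 29 PRC2 and PRC1 subunits 6 fell and 4 rose (2 without day 7 replicate 3 or day 9 replicate 2). These are 20.7% and 13.8%, beside 13.3% and 14.5% of all genes tested, so the share that rose was near that of all genes. The PRC1 subunit gene Cbx2 fell 1.49-fold, and Jarid2, an accessory subunit of PRC2, rose 1.35-fold. Of the DNA methyltransferases, the maintenance enzyme Dnmt1 fell 1.76-fold from 385, 377 and 393 CPM to 215, 239 and 202 CPM. The de novo enzymes moved in opposite directions, with Dnmt3b 2.11-fold lower and Dnmt3a 1.45-fold higher, from 94.97, 95.04 and 71.8 CPM to 126, 132 and 123 CPM. Of 27 imprinted genes 13 rose and 3 fell (6 when only these groups were fitted), with a median of 0.54. Genes of the Dlk1-Meg3 cluster on chromosome 12 rose together: the long non-coding RNA Rian 2.28-fold, from 247, 239 and 256 CPM to 553, 497 and 644 CPM, Meg3 1.98-fold and Dlk1 3.13-fold. Ndn, expressed from the paternal chromosome in neurons, rose 2.04-fold and Usp29 3.26-fold, while Peg10 fell 1.75-fold from 2946, 2887 and 2665 CPM to 1515, 1775 and 1575 CPM.

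Adhesion and guidance genes rose in large part. In the list of very long neuronal adhesion genes 17 of 26 rose and none fell, with a median of 1.11. Opcml, a GPI-anchored adhesion molecule of neurons, rose 5.27-fold from 5.46, 8.33 and 3.59 CPM to 30.9, 31.4 and 28.9 CPM, and Csmd1 6.40-fold from 1.79, 2.08 and 1.13 CPM to 12.9, 10.6 and 9.05 CPM. Of 36 axon guidance genes 20 rose and 6 fell (3 without day 7 replicate 3). Slit1, a repellent of growing axons, rose 4.06-fold from 49.9, 69.6 and 57.9 CPM to 253, 253 and 210.3 CPM (log2 fold change 2.02 ± 0.165, adjusted p = 6.12e-12). The ephrin receptor gene Epha3 rose 3.30-fold and the semaphorin gene Sema3c 3.64-fold. Among clustered protocadherins 9 of 22 rose and none fell, with Pcdhgc3 1.65-fold and Pcdhb2 1.76-fold higher. Of 30 collagen and matrix genes 7 rose (2 without day 7 replicate 1 or day 9 replicate 2, 4 without day 7 replicate 2) and 6 fell. Ncan, the brain proteoglycan neurocan, rose 2.47-fold from 345, 356 and 324 CPM to 875, 826 and 832 CPM, and Vcan, versican, fell 1.78-fold. Sparc, a matrix protein of glia and vessels, rose 4.30-fold from 33.2, 39.7 and 35.7 CPM to 155, 164 and 145 CPM. Over all tested genes with a position, the share that rose grew with the span of the gene. It was 7.8% of 1836 genes under 5 kb, 15.3% of 3815 genes of 20 to 50 kb and 30.3% of 921 genes over 200 kb, while the share that fell was 12.2%, 14.8% and 11.7%. By chromosome, X had 22.0% of its 513 genes higher and 7.6% lower, with a median of 0.14, and the medians of the autosomes lay between -0.06 and 0.06.

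Genes of other tissues were mostly near 0 or did not pass. None of 17 tested muscle genes passed, and 1 of 20 pluripotency genes fell (Klf4, 3.22-fold). Of 15 tail bud genes 2 fell, Fgf17 and Sp8. Fgf17 was lost without day 7 replicate 3 or any of the day 9 libraries, and Sp8 without replicate 1 of either day. Of 23 dorsal and intermediate progenitor genes 2 rose, Bmp7 and Olig3, the latter lost without replicate 2 or 3 of either day, with no filter on low counts and when only the groups compared were fitted. Of 21 mesoderm genes 3 fell and 2 rose (1 without day 7 replicate 1 or 2 or any of the day 9 libraries). The somite factor Meox1 fell 12.6-fold from 7.29, 7.60 and 13.5 CPM to 0.701, 0.872 and 0.621 CPM, and the proteoglycan gene Dcn rose 6.67-fold. The summed level of the mesoderm markers Meox1, Tbx6, Foxc2 and Twist1 was 21.7 to 29.3 CPM at day 7 and 7.09 to 9.58 CPM at day 9. In the endoderm list Cxcr4, which neurons also express, rose and the keratin gene Krt8 fell, and Krt8 was also the 1 of 20 epithelium genes that fell. It was lost without day 9 replicate 1. The summed level of the epithelium list went from 59.0 ± 6.9 CPM at day 7 to 35.1 ± 7.1 CPM at day 9 (SD, n = 3 each). Among epithelial genes that did not pass, Cldn4 passed in 4 alternatives. Cldn7 (13 counts at day 7 and 0 at day 9) passed in 3, and Krt5 (0 and 12 counts) in 2. Of 9 endothelium and blood genes 1 fell, the receptor gene Tie1, at 36 and 0 counts, lost without day 7 replicate 1 or 3 or any of the day 9 libraries. Frem2, a basement membrane protein, fell 6.80-fold from 89.1, 75.0 and 79.2 CPM to 9.20, 13.1 and 13.4 CPM, and the carbonic anhydrase gene Car2 fell 7.66-fold from 28.3, 23.0 and 17.0 CPM to 2.73, 3.81 and 2.22 CPM.

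Whether the interval differed from the next one was tested as the change from day 9 to day 11 minus the change from day 7 to day 9. The day 9 libraries enter both changes with opposite sign, so a high or low day 9 value moves both. The difference passed for 1230 genes, 452 with a more positive second change (2.97%) and 778 with a more negative one (5.12%). Without day 9 replicate 1 the count was 656, and without day 9 replicate 3 it was 517. Without day 11 replicate 3, the library that stood apart, it was 1114. Of the 2209 genes that rose to day 9, 680 rose again to day 11, 187 fell back and 1342 did not pass, and for 571 the second change was lower by the test of the difference. Of the 2029 that fell, 747 fell again, 109 rose and 1173 did not pass, and for 283 the second change was higher. Both sets were chosen by a change that ends at the day 9 libraries, from which the second change starts. Smaller or opposite second changes are therefore partly built into these counts, and how far was not tested.

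By list, the neuronal structural genes had 15 of 25 members with a lower second change, and cholesterol synthesis 18 of 25. Without day 9 replicate 3 these counts were 8 and 11. Tubb3 was at 897 ± 15.2, 1203 ± 36.7 and 883 ± 41.3 CPM at days 7, 9 and 11 (SD, n = 3), a difference of -0.87 ± 0.142, adjusted p = 8.21e-05. Hmgcs1 was at 819 ± 29.1, 1074 ± 65.7 and 691 ± 37.5 CPM, a difference of -1.03 ± 0.124, adjusted p = 6.8e-07. Both stood highest at day 9. In the motor neuron list 8 of 21 members (5 without day 9 replicate 3) had a lower second change, among them Lhx3, which fell to 16.2, 14.7 and 20.1 CPM at day 11 (difference -2.09 ± 0.404, adjusted p = 0.00065). Slc18a3, the cholinergic vesicle transporter, reached 49.6, 40.8 and 50.4 CPM (difference -2.04 ± 0.346, adjusted p = 0.000126). In the collagen and matrix list 10 of 30 members had a higher second change (6 without day 9 replicate 1, 5 without day 9 replicate 3), in the immediate early list 7 of 25 and in the Notch list 6 of 24. Fos was at 31.9, 59.7 and 26.0 CPM at day 11, above all day 9 libraries, with 2 of the 3 below the day 7 range (difference 4.20 ± 0.651, adjusted p = 4.17e-05). Dll1 was at 99.5, 122 and 113 CPM (difference 0.99 ± 0.196, adjusted p = 0.000806). Olig2, lower at day 9, was at 255, 268 and 223 CPM at day 11 (difference 1.42 ± 0.286, adjusted p = 0.00104). Pdgfra had not passed in the first interval and was at 67.1, 75.0 and 51.0 CPM at day 11 (difference 3.58 ± 0.680, adjusted p = 0.000548). The summed replication list went on to 1005 ± 51.1 CPM at day 11 and the mitosis list to 1604 ± 16.4 CPM (SD, n = 3 each). Of the former, 1 of 37 genes had a higher second change (2 without day 11 replicate 1, none without day 11 replicate 3 or replicate 1 or 3 of day 9) and 1 a lower one (none without replicate 2 of day 7 or day 11 or any 1 of the day 9 libraries), and no mitosis gene passed the test of the difference by edgeR, although 9 of 35 had an unadjusted p under 0.05. A lower second change passed for 2 of them by DESeq2's Wald test or without day 9 replicate 3, for 1 without day 11 replicate 1, for 3 when only these groups were fitted and for 4 with no filter on low counts. Igfbp5 rose to day 9 and did not pass from day 9 to day 11, at 2748, 3157 and 3279.7 CPM (difference -2.70 ± 0.264, adjusted p = 1.55e-08). Fabp7 did the same, at 408, 399.7 and 378 CPM (difference -1.84 ± 0.276, adjusted p = 2.34e-05). The 10 genes named here with a difference kept an adjusted p under 0.05 in every alternative run.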

How the data were processed

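RNA was measured in 41 libraries, made from ribosome-depleted total RNA with a directional kit, per the labels' protocols, although the labels also name the molecule genomic DNA. The authors deposited estimated counts per gene symbol for all libraries in 1 table; mm10 and DESeq2 are named in the submitters' processing notes, while for the aligner, the counting tool and the annotation, a name is not given in the sources used here. Estimated counts were rounded, and 29525 of the deposited values (2.95%) were fractional before that. Genes were filtered with filterByExpr by group, scaled by TMM and fitted with edgeR 4.0.16 in R 4.3.3 (glmQLFit and glmQLFTest), with 1 mean for each of 15 groups of genotype and day over all 41 libraries. The contrast was NT day 9 minus NT day 7, and calls were made at a Benjamini-Hochberg adjusted p under 0.05. Every adjusted p in the text comes from that quasi-likelihood test unless a fit is named. CPM values use TMM-scaled library sizes. The fit was tested on simulated data. Means are given with the SD over 3 libraries. Log2 fold changes, and differences between intervals, are given with a standard error derived from the test. It is the size of the change divided by the square root of the quasi-likelihood F statistic.

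Named genes were the 15 largest folds and the 10 smallest adjusted p in each direction (at least 2 CPM in the higher day, no overlap between days, no clone-like symbol), up to 4 members of each of 50 gene lists by adjusted p, all members of lists with under 15 tested genes, a fixed set of examples, the 8 largest differences between intervals in each direction, and genes targeted elsewhere. Others, such as Nfix, Sox3, Sox10, Hes5, Meg3, Dlk1 and the genes of the printed promoter stretches, and the list members named without values, were chosen after their values were seen. Some genes that these rules name are not reported here. Members and lists were chosen with earlier results of these data known. Positions are from GENCODE annotation of GRCm38. Alternatives were the DESeq2 1.42.0 Wald test, DESeq2 size factors, no filter, a fit of only the groups compared, a replicate block, counts without Rn45s, and leaving out each library in turn. No set test was run.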

Additional observations from a re-analysis of the deposited data

Results flagged for a closer look

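In 16 genes with a level of at least 2 CPM on some day, the change from day 9 to day 11 differed from that of day 7 to day 9 by the test of the difference itself (edgeR's quasi-likelihood test, adjusted p under 0.05), and these were the largest differences in each direction. Values are second change minus first, on the log2 scale. The day 9 libraries enter both changes, and a fitted value against a day at 0 counts depends on the prior count and is no bound.

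In 8 genes the second change lay below the first. Neurog3 had a difference of -9.65 and Slc17a8 of -8.69, both at 0 counts in all day 7 libraries. Neurog3 had 399 counts over the day 9 libraries and 386 over those of day 11, and Slc17a8 had 192 and 169. Adtrp followed at -6.18, Hpgds, a prostaglandin synthase gene, at -4.84, the homeobox gene Nkx2-3 at -4.76, Abca12 at -4.00, Th, the first enzyme of dopamine synthesis, at -3.99, and Tbx20 at -3.93. Hpgds was at 0.435, 1.04 and 0.616 CPM at day 7, 7.01, 7.80 and 7.19 CPM at day 9 and 3.10, 3.43 and 1.71 CPM at day 11. Tbx20, a T-box factor of visceral motor neurons, was at 4.44, 6.77 and 8.21 CPM, then at 21.4, 20.8 and 15.2 CPM and then at 5.65, 4.17 and 1.31 CPM. Th stood at 16.7, 10.7 and 11.4 CPM at day 9 and at 0.542, 0.835 and 2.01 CPM at day 11.

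In the other 8 it lay above the first. Oaz1-ps stood at 22.08, Olfml2a at 12.24, Hspa1a at 11.81, Mroh6 at 8.53, Cyp4f15 at 7.02, Ogn at 6.48, Dnah9 at 6.38 and Dscaml1 at 5.81. Dscaml1, a cell adhesion molecule of neurons, was at 0.483, 1.77 and 0.718 CPM at day 7, 0.312, 0.275 and 1.06 CPM at day 9 and 20.3, 20.0 and 8.05 CPM at day 11, and every day 11 library lay above all others. Oaz1-ps, a pseudogene that can share reads with Oaz1, had 1484 counts at day 7, 0 at day 9 and 266 at day 11. At day 11 these counts came from replicate 2 alone, and without that library the adjusted p was 1. Of the 16 differences, 10 were lost in at least 1 alternative and 6 were called in all of those run.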

How the results depend on the processing

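For day 9 against day 7, the 4238 calls became 4519 with the DESeq2 Wald test, 4234 with DESeq2 size factors, 4094 with no filter, 5201 when only the groups compared were fitted, 4234 without Rn45s, and 3351 to 3786 when 1 library was left out. Counts that rose ran from 1777 to 2017 and those that fell from 1574 to 1791 when 1 library was left out, and the at least 2-fold counts from 574 to 631 and from 271 to 371. Of 216 named genes called, 190 were called in every alternative, 26 were lost in at least 1 and 0 reversed.

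With the replicate number as a block, 4305 genes were called, 4198 of them among the 4238, and the difference between intervals had 1294 calls. Among genes given above, the block ended the call of Hoxc9 (adjusted p = 0.0572) and gave one to Sox2 (0.0369). Deviations of same-numbered libraries correlated at 0.0137, 0.00797 and 0.00935, so the numbers were not taken to pair the samples.

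The difference between intervals was less steady. When 1 library was left out, its 1230 calls ranged from 517 (without day 9 replicate 3) to 1341 (without day 11 replicate 1), with 656 without day 9 replicate 1. Over the same fits, the 452 with a more positive second change ranged from 176 (without day 9 replicate 3) to 491 (without day 11 replicate 1), with 200.0 without day 9 replicate 1 and 280.0 without day 9 replicate 2. The 778 with a more negative one ranged from 341 (without day 9 replicate 3) to 850.0 (without day 11 replicate 1), with 456 without day 9 replicate 1. These fits rest on fewer samples. The other alternatives gave 1165 to 1485 calls, with 451 to 643 more positive and 682 to 873 more negative. Genes near 0 are limited by depth, since a count of 0 in 1 library leaves room for levels up to 0.138 to 0.312 CPM.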
